A study of Homo sapiens with 16 samples.

Results

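RNA polymerase II occupancy was compared between DKO and HCT116 cells over 162247 genomic regions, which are all the regions of the total RNA polymerase II table and part of 1255311 regions in the 7 tables of the series. The regions were taken without any choice on their values. HCT116 is a human colorectal carcinoma line, and DKO is a clonal derivative of it in which the genes for the DNA methyltransferases DNMT1 and DNMT3B were disrupted by gene targeting. The lines therefore share the colon carcinoma background, no treatment is given, and any difference between a single clone and its parent is part of the comparison. Chromatin was fixed with formaldehyde, sheared, immunoprecipitated and sequenced, with 1 library for each line and target. The title of each library names total polymerase, while its antibody label names the form phosphorylated at serine 5 (Pol2Ser5), and the grouping followed the title.

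RNA polymerase II transcribes protein-coding genes and many non-coding RNAs. It gathers at promoters and enhancers, where it is phosphorylated at serine 5 of its C-terminal repeat and often pauses, and it travels along gene bodies carrying serine 2 phosphorylation. An antibody against total polymerase should recover all of these states. CTCF is a DNA-binding protein that halts the cohesin ring, of which RAD21 and SMC1 are subunits, and its binding at some sites is blocked by DNA methylation. H3K27Ac, acetylation of histone H3 at lysine 27, marks active promoters and enhancers. These targets have tables of their own, which were used here to sort the polymerase regions.

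The value compared is the log2 ratio of the normalized read density in DKO over that in HCT116, positive where DKO was higher. With 1 library a line there is no replicate check and no test of the lines. The 95% intervals given take in counting error, or how regions scatter, and nothing else: Wilson intervals for shares, order-statistic intervals for medians and exact Clopper-Pearson intervals for a single region. Regions are not replicates. If windows are centred on midpoints, 68.8% of regions lay close enough to a neighbour to share part of a counting window of 2 kb. The reads behind each density could be recovered: medians were 74 reads a region for DKO and 50 for HCT116, and 8 in 10 regions lay between 26 and 206 reads in DKO and between 27 and 111 reads in HCT116. No annotation of hg19, the build of the files, was used, so regions are named by position and not by gene, and neither colon marker genes nor the disrupted genes could be looked up to check the cell lines. Outside chromosome Y, 5 regions had 0 reads in DKO with at least 30 in HCT116. Of these, 4 lay between 31377611 and 31390872 on chromosome 20, where they were the only polymerase regions and had between 66 and 74 reads in HCT116.

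Polymerase density was higher in DKO at most regions as the authors scaled the data. The median density was 35.1 in DKO and 27.2 in HCT116, and the median log2 ratio was 0.27 (0.26 to 0.28). At least 2-fold higher in DKO were 33515 regions (20.7%), and 16525 regions (10.2%) were at least 2-fold lower in DKO. At 4-fold, 6956 regions (4.29%) were higher and 2840 (1.75%) lower in DKO. The balance of these counts rests on the scaling between the libraries. The authors' scaling follows a straight line in the mean log2 density, while a constant centring on the regions called in both lines gave a median of -0.02, with 12.1% of regions at least 2-fold higher and 19.0% at least 2-fold lower in DKO. Between the scalings the median of all regions moved by -0.29, so the groups of regions below are read against the median of all regions, and the value under constant centring is given where it matters.

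**Figure D1:**
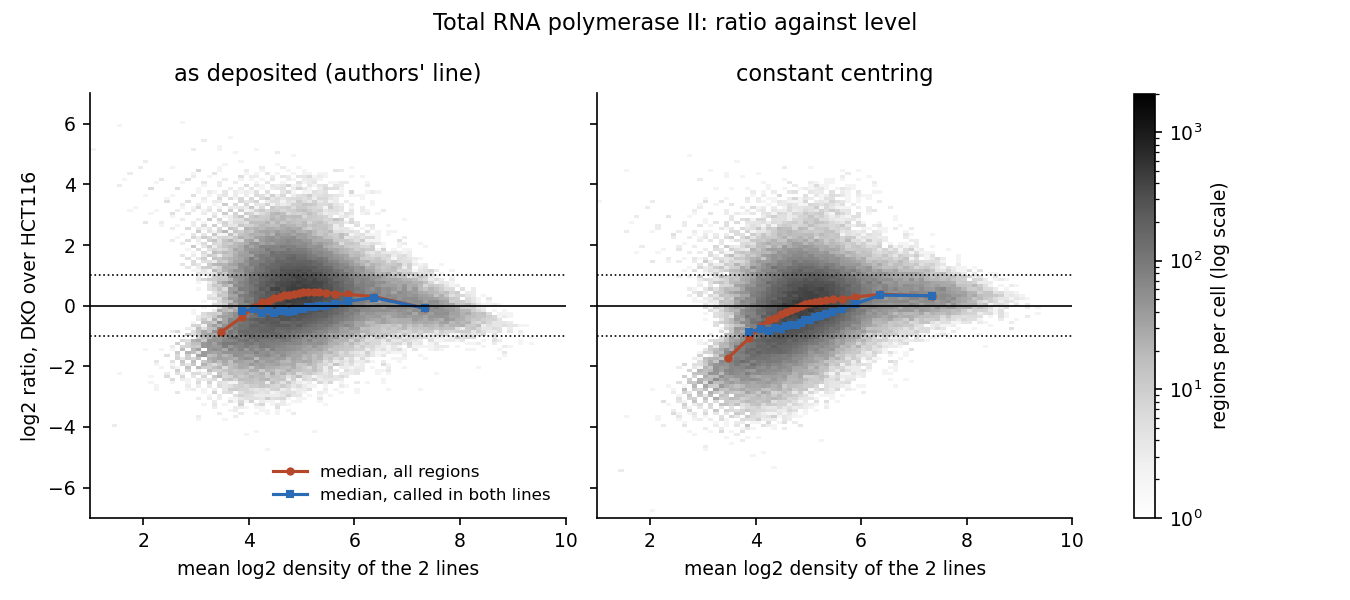
Log2 ratio of total RNA polymerase II density, DKO over HCT116 (vertical axis), against the mean log2 density of the lines (horizontal axis), with the number of regions in each cell of the plane in grey. The left panel has the values as deposited and the right panel the constant centring; circles are medians of all regions, squares medians of regions called in both lines, and dotted lines mark 2-fold. In the right panel the medians climb with the level, and in the left panel those of the regions called in both lines stay near 0.

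Which line a region was called in followed its ratio, as it must when calling uses the same reads. The authors called 89890 regions in DKO only, 39535 in HCT116 only and 32822 in both lines. Regions called in DKO only had a median density of 38.5 in DKO and 22.5 in HCT116 and a median log2 ratio of 0.73. Of these, 35.0% were at least 2-fold higher. Regions called in HCT116 only had a median density of 16.2 in DKO and 27.8 in HCT116, with a median log2 ratio of -0.77 and 36.6% at least 2-fold lower in DKO. The regions called in both lines were denser, with medians of 61.0 in DKO and 56.7 in HCT116, and their median log2 ratio of 0.01 is where the scaling places it. Among them 2043 (6.22%) were at least 2-fold higher and 1923 (5.86%) at least 2-fold lower in DKO, each well under the shares of the whole table.

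Most regions were short. The median length was 354 bp, the middle 50% ran between 243 and 661 bp, 84.2% were under 1 kb, and the longest had 43579 bp. Regions of 500 bp to 1 kb and of 1 to 1.9 kb leaned most towards DKO: 29.0% (28.5 to 29.6) of 29562 and 28.9% (28.2 to 29.6) of 15976 were at least 2-fold higher in DKO, against 16.9% (16.7 to 17.1) of the 107046 regions under 500 bp. The share at least 2-fold lower in DKO was 9.18% and 7.09% in these middle classes and 11.2% under 500 bp. Median densities were 44.4 in DKO and 31.7 in HCT116 for regions of 500 bp to 1 kb, and 28.1 in DKO and 23.9 in HCT116 under 500 bp. The broadest regions stood apart: the 303 regions of 10 kb or more, of which 299 were called in both lines, had median densities of 248 in DKO and 237 in HCT116 and a median log2 ratio of -0.01 (-0.16 to 0.08). In this class 12.2% were at least 2-fold higher and 14.2% at least 2-fold lower in DKO.

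The order by length depends on the scaling. As deposited, the median log2 ratio was 0.18 under 500 bp, 0.51 at 500 bp to 1 kb, 0.44 at 1 to 1.9 kb, 0.26 at 2 to 4.9 kb, 0.35 at 5 to 9.9 kb and -0.01 at 10 kb or more. Under constant centring it was -0.24, 0.24, 0.44, 0.50, 0.65 and 0.50 over the same classes. The shortest class lay below each class between 500 bp and 9.9 kb under both scalings, while the class of 10 kb or more was the lowest as deposited and not under constant centring. Since length and density go together, the length of a region and its level cannot be told apart here as what the ratio follows. A wide region was also counted in a window of 2 kb, so its value describes a stretch of it and not its whole length.

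Regions called in 1 line differed more between the lines the longer they were. Their call and their length both rest on the reads of that line, so this gradient is partly built into how they were picked. Among those called in DKO only, median DKO reads were 70 under 500 bp and 359.5 at 5 to 9.9 kb. Median HCT116 reads were 40 and 44.5 in the same classes. Among those called in DKO only, the median log2 ratio was 0.60 under 500 bp, 0.96 at 500 bp to 1 kb, 1.38 at 1 to 1.9 kb, 1.78 at 2 to 4.9 kb and 2.41 (2.09 to 2.77) over 100 regions of 5 to 9.9 kb. Among those called in HCT116 only it was -0.71, -1.36, -2.13 and -2.78 over the first 4 classes, with 124 regions in the last of them. As deposited, regions called in both lines stayed between -0.12 and 0.25 in every length class. Under constant centring their medians rose between -0.44 under 500 bp and 0.59 at 5 to 9.9 kb, with 0.50 at 10 kb or more. Constant centring kept the gradients of regions called in 1 line. Medians were 0.18 and 2.32 in the shortest and the 5 to 9.9 kb classes called in DKO only. They were -1.28 and -3.10 in the shortest and the 2 to 4.9 kb classes called in HCT116 only.

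**Figure D2:**
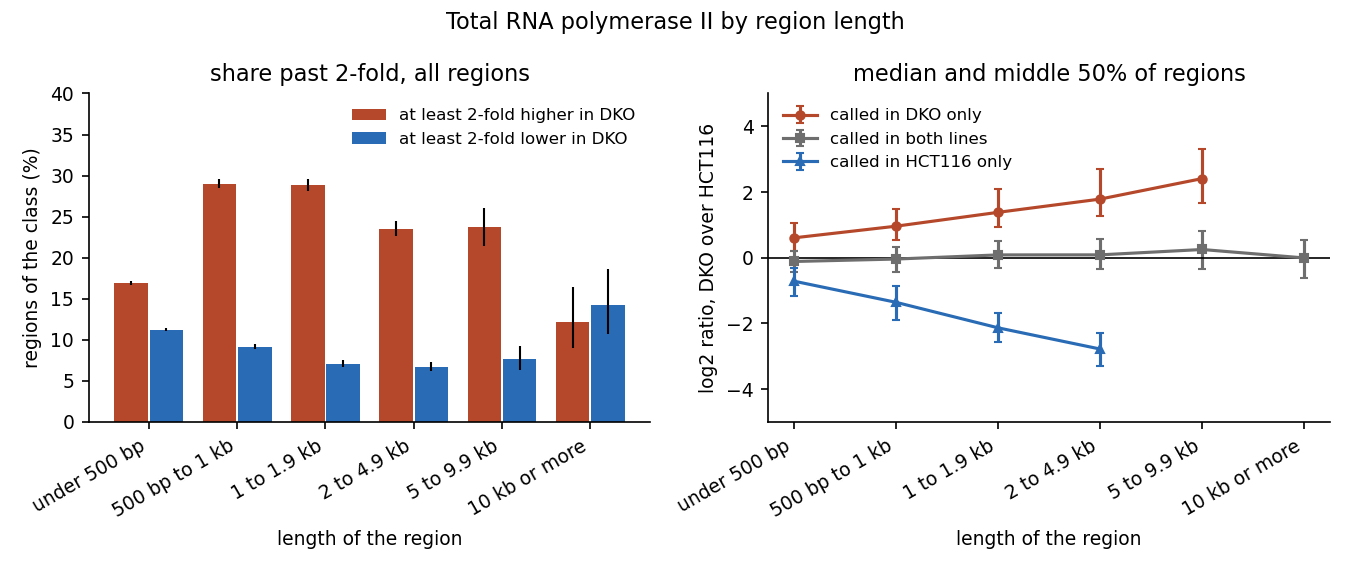
Left, the percent of regions in each length class that were at least 2-fold higher (left bar of each pair) or lower (right bar) in DKO, with 95% Wilson intervals. Right, the median log2 ratio, DKO over HCT116, with the middle 50% of regions, for regions called in DKO only, in both lines and in HCT116 only (classes of under 20 regions left out). Regions called in 1 line, whose call and length rest on that line's reads, move away from 0 with length, reaching 2.41 and -2.78. Those called in both lines stay near 0 as deposited. Under constant centring, not drawn, their medians run between -0.44 under 500 bp and 0.59 at 5 to 9.9 kb.

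The regions were cut into 4 equal density classes by mean log2 density. In the lowest class 20.6% were higher and 22.7% lower, with median densities of 16.6 in DKO and 17.0 in HCT116. The share lower in DKO was 8.13% in the second class, 5.13% in the third and 4.81% in the highest class, where 15.7% were higher in DKO. Under constant centring 9.61% were higher and 44.1% lower in the lowest class, and 11.6% were higher and 17.6% lower in the second. The densest 1% of regions, 1623 in number and 1619 of them called in both lines were lower in DKO as deposited. Their median log2 ratio was -0.38 (-0.40 to -0.36), with 0.308% at least 2-fold higher and 9.30% at least 2-fold lower in DKO. Their median read number was 749 in DKO and 412 in HCT116, and under constant centring their median was 0.26, so the direction at the densest regions is set by the scaling.

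Single regions and runs are named here outside chromosomes 8 and Y only, with single regions at least 50 kb apart within a list. Read numbers of a region, here and below, are those of its 2 kb counting window, whatever the length of the region. The densest region on these terms, chr17:62222312-62227194 (4882 bp), had 1858 reads in DKO and 1487 in HCT116. Its log2 ratio was -1.39 (-1.49 to -1.29) as deposited and -0.27 under constant centring. The next densest, chr20:30188553-30197785, had 1545 reads in DKO and 1686 in HCT116, the only one of the 5 densest with fewer reads in DKO, and a log2 ratio of -1.82 as deposited and -0.72 under constant centring. The region chr6:74227496-74234402 had 1827 reads in DKO and 1380 in HCT116, and chr11:65178290-65198309, 20 kb long, had 1656 and 1290 reads in the same order. The fifth, chr17:74721039-74734611, had 1954 reads in DKO and 1056 in HCT116, with a log2 ratio of -0.75 as deposited and 0.29 under constant centring. At all 5 the Pol2Ser5 and Pol2Ser2 tables also had log2 ratios below 0, between -0.46 and -1.08 for Pol2Ser5 and between -1.17 and -2.26 for Pol2Ser2.

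Polymerase regions were then sorted by what lay over them, with an overlap of at least 1 bp. Of the polymerase regions 45.7% held an H3K27Ac region, 34.3% a RAD21, 30.9% an SMC1 and 29.7% a CTCF region, and 34.6%, 37.7%, 41.8% and 31.0% of the regions of those tables in the same order lay over a polymerase region. Longer regions meet more of everything: CTCF lay over 18.8% of polymerase regions under 500 bp and 97.0% of those of 10 kb or more, and H3K27Ac over 33.8% and 99.01%. Regions with H3K27Ac had median densities of 47.9 in DKO and 32.6 in HCT116 and a median log2 ratio of 0.45 (0.44 to 0.46). Regions without it had 28.2 in DKO and 24.6 in HCT116 and a median of 0.15 (0.14 to 0.15). The shares at least 2-fold higher in DKO were 28.7% with and 13.9% without H3K27Ac, and those lower in DKO 10.5% with and 9.899% without it. Under constant centring the medians were 0.30 with and -0.27 without it, and the shares lower in DKO were 14.6% with and 22.7% without it.

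CTCF without cohesin, where H3K27Ac was also present, marked the regions with the highest median under both scalings (0.85 as deposited and 0.54 under constant centring). Where CTCF and H3K27Ac lay over a polymerase region and neither cohesin subunit did, 3323 regions had median densities of 45.6 in DKO and 24.7 in HCT116. The interval of their median was 0.82 to 0.89, 42.5% (40.8 to 44.2) were at least 2-fold higher and 6.02% lower in DKO, and 79.4% had been called in DKO only. With H3K27Ac and CTCF and both cohesin subunits, the 28758 regions had median densities of 70.7 in DKO and 45.8 in HCT116, a median log2 ratio of 0.39 (0.38 to 0.41) and 27.6% higher against 7.13% lower. With H3K27Ac and both cohesin subunits but no CTCF, the median of 7389 regions was 0.10 (0.07 to 0.13), and 21.4% were higher and 17.6% lower in DKO, the largest share of lower regions among the combinations with H3K27Ac. With H3K27Ac and 1 cohesin subunit, with or without CTCF, the median of 12775 regions was 0.65, and 35.3% were higher and 10.8% lower in DKO. With H3K27Ac alone, the median of 21842 regions was 0.44 and the shares were 26.7% higher and 13.1% lower.

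Without H3K27Ac the differences between combinations were smaller. CTCF without cohesin had a median log2 ratio of 0.49 over 3399 regions, and CTCF with both cohesin subunits 0.37 over 5638. The 70784 regions with none of the 4 targets, 43.6% of the table, had median densities of 26.6 in DKO and 24.4 in HCT116, a median log2 ratio of 0.08 (0.07 to 0.09), and 11.7% higher and 10.9% lower in DKO. Under constant centring that median was -0.36, with 4.24% higher and 24.9% lower. Among regions called in both lines, the medians of these combinations, with and without H3K27Ac, lay between -0.10 and 0.16. Their values are held near 0 by the scaling and by the way regions were called. CTCF regions were themselves more often higher than lower in DKO (20.1% and 6.33% of 171693), and the part of this in the order of the combinations was not tested.

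The phosphorylated forms divided the regions as well. Both Pol2Ser5 and Pol2Ser2 lay over 50791 regions, which had median densities of 55.9 in DKO and 39.4 in HCT116, a median log2 ratio of 0.38, and 45.6% called in both lines. Pol2Ser5 alone lay over 26200 regions, of which 72.5% held H3K27Ac, and 27.8% were higher and 12.7% lower in DKO. Pol2Ser2 alone lay over 39412 regions, of which 26.3% held H3K27Ac, and 19.9% were higher and 7.14% lower in DKO. Neither form lay over 45844 regions, which were sparse, with median densities of 21.7 in DKO and 21.2 in HCT116. More of them were lower (16.0%) than higher (13.2%) in DKO. Under constant centring 17.6% were higher and 19.6% lower in DKO with Pol2Ser5 alone, and 8.76% and 14.5% with Pol2Ser2 alone. With neither form 4.40% were higher and 34.5% lower. With both forms 18.8% were higher and 8.11% lower, the only class with more higher than lower. Across overlapping regions the rank correlation of densities with Pol2Ser5 was 0.86 in DKO and 0.80 in HCT116 over 76991 regions, against 0.65 in DKO and 0.55 in HCT116 with Pol2Ser2 over 90203. The points of such a correlation share loci, copy number and mappability, and which antibody made the libraries cannot be told from these values.

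Seen from the direction of the polymerase difference, the regions at either end were unlike. Those at least 2-fold higher in DKO had 106 DKO reads and 30 HCT116 reads at the median, a median length of 458 bp, H3K27Ac over 63.4% and CTCF over 42.2%. Those at least 2-fold lower in DKO had 22 DKO reads and 67 HCT116 reads, a median length of 312 bp, H3K27Ac over 47.2% and CTCF over 19.5%. Similar regions, within 0.5 of 0 on the log2 scale, had a median length of 335 bp, H3K27Ac over 38.6% and CTCF over 26.99%.

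Where a CTCF region lay over a polymerase region higher in DKO, in 49.4% (48.6 to 50.3) of 14134 such regions CTCF itself passed 2-fold in that direction, with a median CTCF log2 ratio of 0.99. For H3K27Ac this held in 29.7% (29.1 to 30.4) of 21241, with a median of 0.41. Over the whole of each deposited list, 20.1% of CTCF and 11% of H3K27Ac regions were higher in DKO. Over polymerase regions lower in DKO the order was turned round: H3K27Ac was at least 2-fold lower in 66.8% (65.7 to 67.8) of 7798, with a median of -1.503, and CTCF in 29.3% (27.7 to 30.9) of 3228, with a median of -0.56. The whole tables had 10.4% of H3K27Ac and 6.33% of CTCF regions lower in DKO. In both directions, then, the partner with the larger share here also had the larger share in its whole table. Over similar polymerase regions, CTCF was higher in 8.38% and lower in 3.18%, and H3K27Ac was higher in 6.21% and lower in 7.86%. Under constant centring of the polymerase reads the same order stood, with CTCF at 52.8% and H3K27Ac at 34.2% over regions higher in DKO, and H3K27Ac at 58.7% and CTCF at 24.9% over regions lower in DKO.

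The cohesin subunits were sorted in the same way. Over regions higher in DKO, RAD21 was at least 2-fold higher in 21.5% and SMC1 in 23.6%, against 13.7% and 9.36% of their whole tables. Over regions lower in DKO, RAD21 was at least 2-fold lower in 27.8% and SMC1 in 19.1%, against 8.7% and 4.67% of their tables. At similar polymerase regions RAD21 was lower in DKO in 14.3% and higher in 4.50%. The phosphorylated forms followed total polymerase more closely: Pol2Ser5 was higher at 56.6% and Pol2Ser2 at 55.4% of the regions higher in DKO that they overlapped (14.9% and 18.6% of their tables), and lower at 76.3% and 70.7% of the regions lower in DKO (21% and 10.9%). The opposite direction was rare, with Pol2Ser5 lower at 0.2496% of the polymerase regions higher in DKO and higher at 0.219% of those lower in DKO.

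The polymerase ratio was ordered by CTCF and H3K27Ac jointly. The 2360 regions at which both were at least 2-fold higher in DKO had median polymerase densities of 74.5 in DKO and 14.0 in HCT116, a median log2 ratio of 2.37 (2.31 to 2.43), and 88.3% at least 2-fold higher. With CTCF higher and no H3K27Ac region the median was 0.96 (0.92 to 0.99) over 2880 regions, and with H3K27Ac higher and no CTCF region 1.20 (1.17 to 1.24) over 5382. With CTCF higher and H3K27Ac lower, which happened at 155 regions, it was 0.70 (0.34 to 0.85). On the other side, the 827 regions at which both were lower in DKO had median densities of 14.9 in DKO and 41.2 in HCT116, a median log2 ratio of -1.47 (-1.55 to -1.41) and 74.6% at least 2-fold lower. H3K27Ac lower with no CTCF region gave -1.25 (-1.28 to -1.22) over 6101 regions, while CTCF lower with no H3K27Ac region gave -0.49 (-0.60 to -0.41) over 399. Under constant centring the medians were 2.02 where both were higher and -1.97 where both were lower.

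**Figure D3:**
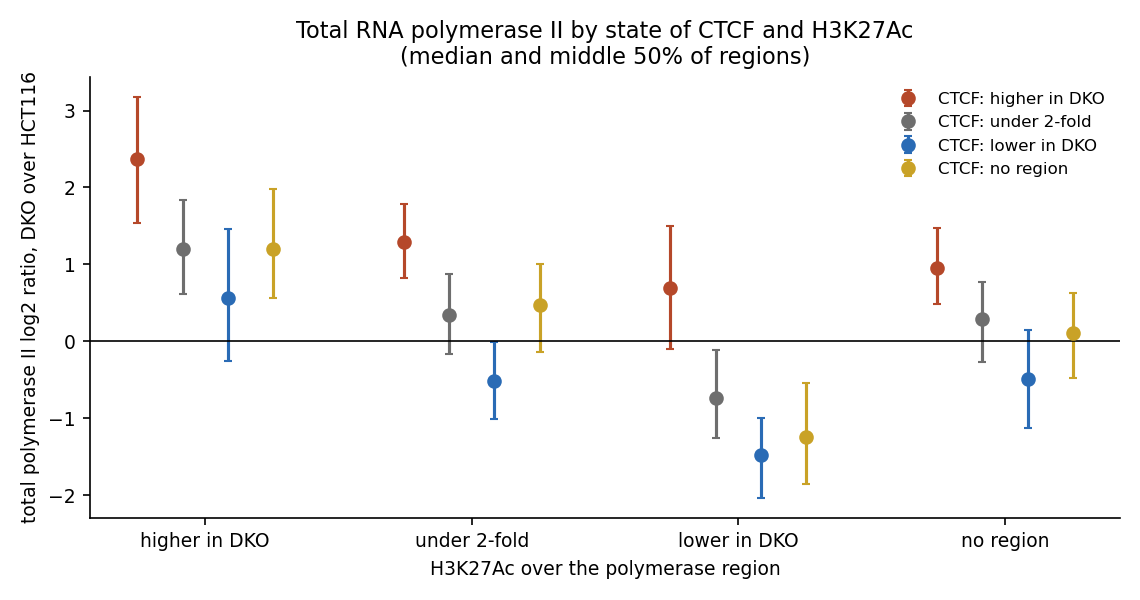
Median total polymerase II log2 ratio, DKO over HCT116 (vertical axis), with the middle 50% of regions, by the state of the H3K27Ac region over it (groups along the horizontal axis) and of the CTCF region over it (colours). Medians run between 2.37 where both were higher in DKO and -1.47 where both were lower.

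Most regions past 2-fold had neither partner past 2-fold in the same direction. Of the 33515 regions higher in DKO, 6.22% had both CTCF and H3K27Ac at least 2-fold higher, 14.6% CTCF but not H3K27Ac, 12.6% H3K27Ac but not CTCF and 66.5% neither. Of the 16525 lower in DKO, 3.73% had both lower, 1.98% CTCF but not H3K27Ac, 27.8% H3K27Ac but not CTCF and 66.5% neither. Over all polymerase regions these partners were rarer: both were higher at 1.45% and both lower at 0.51%. Having neither was more common over all polymerase regions than among those past 2-fold, in both directions. Any CTCF region higher in DKO lay over 7.05% of all polymerase regions, and any H3K27Ac region higher in DKO over 6.15%. For CTCF and H3K27Ac regions lower in DKO the shares were 1.41% and 5.90%. These single-partner shares count any overlapping region, while the joint shares take the region with the longest overlap. The regions with both were the longest and differed most, with a median length of 972 bp and a median log2 ratio of 2.55 among those higher in DKO, against 404 bp and 1.35 among those with neither.

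The difference extended past the overlap, though a polymerase region within 2 kb can share part of its counting window with the overlapped stretch. Measured to the nearest CTCF region higher in DKO, the median polymerase log2 ratio was 1.29 on it, 0.85 within 2 kb, 0.58 at 2 to 10 kb, 0.24 at 10 to 50 kb, -0.15 at 50 to 200 kb and -0.48 at 200 kb or more. Measured to CTCF regions lower in DKO it ran the other way, with -0.83 on them, -0.43 within 2 kb, -0.08 at 2 to 10 kb and 0.55 at 200 kb or more. Around similar CTCF regions the medians were also above 0, with 0.25 on them, 0.46 within 2 kb and 0.39 at 2 to 10 kb. Under constant centring these were 0.23, 0.18 and 0.04. For H3K27Ac regions higher in DKO the values were 1.41 on them, 0.84 within 2 kb, 0.60 at 2 to 10 kb and -0.24 at 200 kb or more. For H3K27Ac regions lower in DKO the median was -1.11 on them and -0.18 within 2 kb, a steeper step than the one around lower CTCF regions. Regions at 200 kb or more from a higher CTCF region had median densities of 19.0 in DKO and 25.5 in HCT116, and those at 200 kb or more from a lower CTCF region 40.6 in DKO and 25.8 in HCT116. Under constant centring the medians were 1.01 on and -0.94 at 200 kb or more from higher CTCF regions, and -1.55 on and 0.18 at 200 kb or more from lower H3K27Ac regions.

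**Figure D4:**
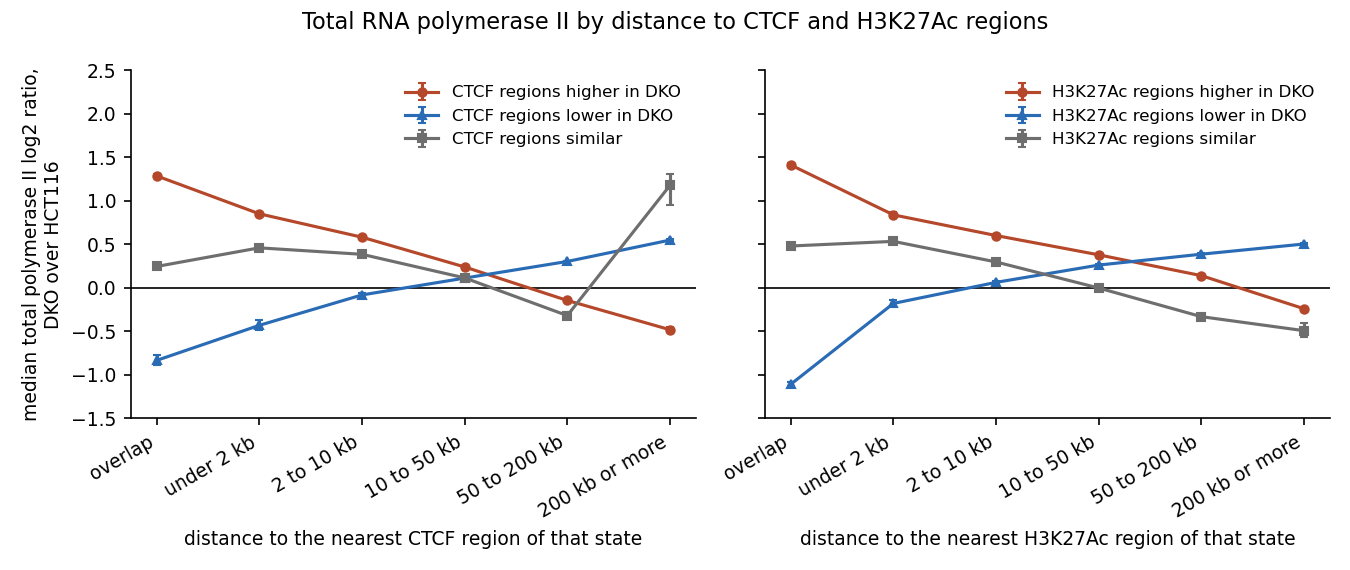
Median total polymerase II log2 ratio, DKO over HCT116, with its 95% interval (vertical axis), by distance to the nearest CTCF (left) or H3K27Ac (right) region past 2-fold higher in DKO, past 2-fold lower in DKO or within 0.5 of 0 on the log2 scale (similar). The lines of higher and lower regions cross between 10 and 200 kb; the last point of similar CTCF regions, at 1.18, rests on 867 regions, of which 52.6% were higher and 25.5% lower in DKO.

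Neighbouring regions tended to share a ratio. Consecutive regions whose midpoints lay 2 to 5 kb apart would share no counting window if windows were centred on midpoints, which is not stated. Over 33417 such pairs the rank correlation of the log2 ratios was 0.66. It was 0.53 at 5 to 10 kb, 0.43 at 10 to 20 kb, 0.33 at 20 to 50 kb and 0.21 at 100 to 500 kb. Where both members of a pair passed 2-fold, they had the same direction in 97.9% of 5099 pairs at 2 to 5 kb and in 66.3% of 1105 pairs at 100 to 500 kb. These are descriptions over pairs that share libraries and, when close, copy number.

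Past 2-fold, regions formed runs of one direction. Counting regions of one direction with gaps of at most 10 kb and no region of another state between them, 1459 runs of 5 or more were higher in DKO and held 11770 regions, 35.1% of those higher. In the lower direction 454 runs held 5573 regions, 33.7% of those lower. Which direction had more runs depends on the setting. Under constant centring 691 runs were higher and 846 lower, and at a 4-fold threshold 97 were higher and 109 lower. The runs lower in DKO reached further: 59 runs of 20 or more regions held 14.4% of the lower regions, with a median span of 57.8 kb, while 34 such runs held 2.63% of the higher regions, with a median span of 44.4 kb. The long lower runs held little CTCF, over 9.60% of their regions, and H3K27Ac over 40.9%, but Pol2Ser2 over 67.5%. Lower regions standing alone, 6069 in number, held CTCF over 23.9%, H3K27Ac over 38.95% and Pol2Ser2 over 17.8%. In the long higher runs CTCF lay over 39.0%, H3K27Ac over 61.7% and Pol2Ser2 over 76.2% of regions, against 41.7%, 59.3% and 47.0% of higher regions standing alone. Pol2Ser2, the form of gene bodies, thus lay over more regions of long runs in both directions.

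The longest run lower in DKO, by number of regions, was chr11:5316655-5483932, with 108 regions over 167 kb. Its regions had between 6 and 55 reads in DKO, with a median of 18, and between 44 and 138 in HCT116, with a median of 80. Its median log2 ratio was -2.04, the weakest region stood at -1.13, and 82 of the 108 regions held Pol2Ser2 while 9 held H3K27Ac. The next were chr12:88883127-88977014, with 100 regions and a median of -2.67, and chr12:66215181-66363005, with 98 regions and a median of -2.31. The run chr2:55206689-55275490 had 74 regions at a median of -1.47. The run chr11:121951640-122075185 had 70 regions at a median of -2.83, with H3K27Ac over 52 of them and at a median H3K27Ac log2 ratio of -2.29.

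The longest run higher in DKO was chr7:72724715-72788215, with 41 regions over 63.5 kb, all called in DKO only. Its regions had between 44 and 353 reads in DKO, with a median of 140, and between 14 and 39 in HCT116, with a median of 23. A run holds only regions at least 2-fold higher in DKO, so the lines are set apart in it by the rule that formed it. The median log2 ratio was 2.23, with Pol2Ser5 at 2.32 and Pol2Ser2 at 2.56, while the 17 H3K27Ac regions in it had a median of -0.29 and the 8 CTCF regions 0.63. The run chr12:133395699-133466022 had 36 regions at a median of 2.01, of which 5 held H3K27Ac. The run chr4:1752902-1813702 had 35 regions at a median of 1.72, of which 34 held H3K27Ac and 30 held CTCF, with median log2 ratios of 0.20 for H3K27Ac and 1.16 for CTCF. The run chr5:180016042-180086059 had 35 regions at a median of 2.01, and chr22:41701506-41743591 had 32 at 1.41. Polymerase was thus higher over these stretches with H3K27Ac medians between -0.31 and 2.25.

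**Figure D5:**
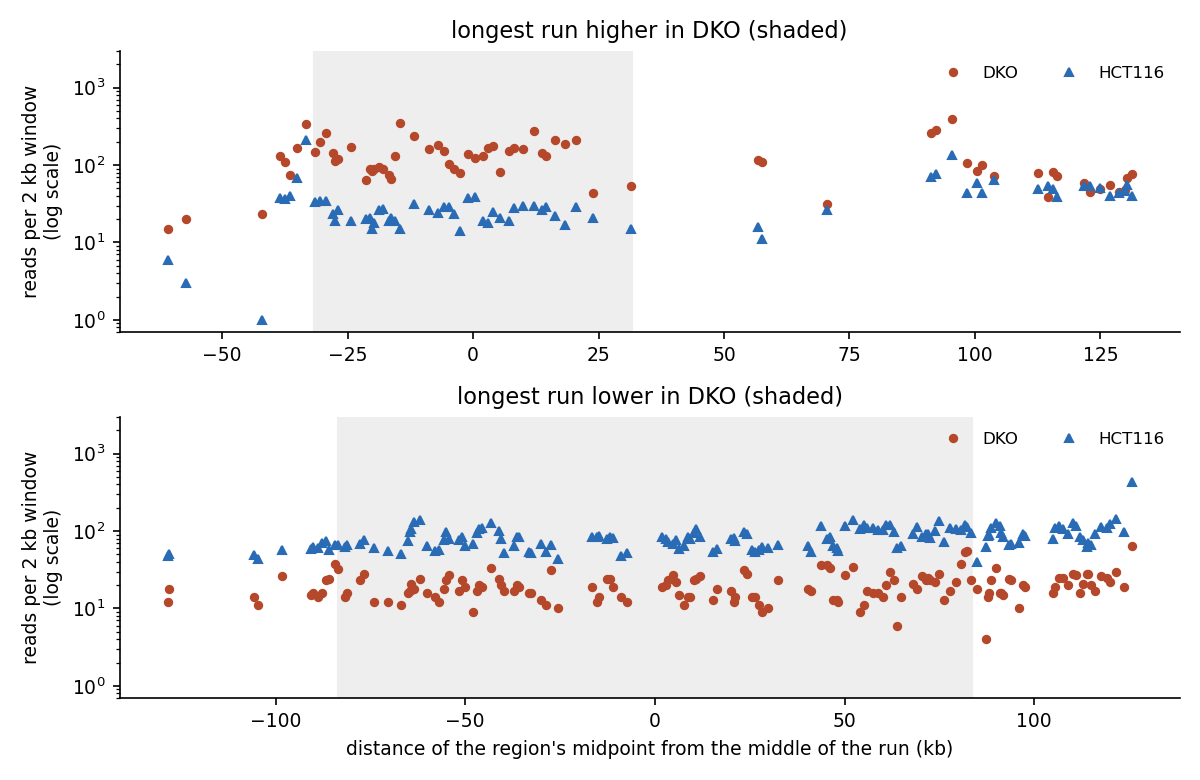
Recovered reads per counting window (log axis) of each total polymerase II region in DKO (circles) and HCT116 (triangles) against the distance of its midpoint from the middle of the run, for the longest run higher in DKO (top) and the longest run lower in DKO (bottom), both shaded, with the regions on either side. In the top run DKO reads lie between 44 and 353 and HCT116 reads between 14 and 39; in the bottom run DKO reads lie between 6 and 55 and HCT116 reads between 44 and 138.

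Single regions were ranked among the 81125 whose density in the higher line was at or above its median over the table. Their reads are again those of 1 counting window of 2 kb and not of the whole length given. Those with the highest ratio had almost no HCT116 reads. At chr16:32265379-32266107 there were 114 reads in DKO and 1 in HCT116, a log2 ratio of 6.27 with a counting interval of 4.75 to 12.58. At chr10:132098293-132100341 there were 545 reads in DKO and 6 in HCT116, a log2 ratio of 6.07 (5.16 to 7.75), with H3K27Ac at 6.88 and CTCF at 2.59. At chr14:29236410-29236621, only 211 bp long, there were 365 reads in DKO and 5 in HCT116, a log2 ratio of 5.85 (4.87 to 7.74), with H3K27Ac at 6.35. The region chr2:176986255-176988489 had 596 reads in DKO and 8 in HCT116, a log2 ratio of 5.76 (4.94 to 7.15). At chr6:3226927-3228740, with 383 reads in DKO and 6 in HCT116, the log2 ratio was 5.65 while H3K27Ac stood at 0.87 and CTCF at 2.90. All 10 regions with the highest ratio were called in DKO only, and all 10 had a Pol2Ser5 region with a log2 ratio between 1.26 and 5.86.

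At the lower end of the same ranking, each of the regions named here kept some DKO reads. The regions of chromosome 20 with 0 reads in DKO fell below the density needed for it. At chr6:145249843-145253206 there were 6 reads in DKO and 228 in HCT116, a log2 ratio of -5.05 (-6.72 to -4.12), with H3K27Ac at -3.60 and CTCF at -0.63. At chr11:122026101-122029258, which lies in one of the long runs above, there were 16 reads in DKO and 393 in HCT116, a log2 ratio of -4.87 (-5.78 to -4.24), with H3K27Ac at -3.77. The region chr9:21515732-21536979, 21247 bp long and called in both lines, had 27 reads in DKO and 551 in HCT116, a log2 ratio of -4.83 (-5.50 to -4.32), with Pol2Ser2 at -8.01. The region chr4:75229511-75258192, 28681 bp long, had 40 reads in DKO and 702 in HCT116, with a log2 ratio of -4.77 (-5.30 to -4.34), H3K27Ac at -4.58 and CTCF at 0.10. The 10 lowest regions all had Pol2Ser5 between -3.96 and -5.86 and H3K27Ac between -1.03 and -6.03, while the 6 of them with a CTCF region had CTCF between -2.11 and 0.10.

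Among regions called in both lines, the highest was chr14:24104152-24119265, 15113 bp long, with 1028 reads in DKO and 46 in HCT116 and a log2 ratio of 3.66 (3.27 to 4.15). Next came chr1:156636666-156641517, with 424 reads in DKO and 24 in HCT116 and a log2 ratio of 3.64, where H3K27Ac stood at 0.10 and Pol2Ser5 at 4.34. The lowest called in both lines after chr9:21515732-21536979 was chr12:15841011-15843189, with 30 reads in DKO and 539 in HCT116 (-4.67). Also among the 5 lowest was chr16:69439192-69442762, with 39 reads in DKO and 541 in HCT116 (-4.37). Another of them was chr19:18495841-18503204, with 98 and 753 reads (-3.82), where H3K27Ac stood at -0.28 and Pol2Ser2 at -4.68. Away from any CTCF, RAD21, SMC1 or H3K27Ac region, the highest was chr16:325999-326203, with 96 reads in DKO and 4 in HCT116 (4.54, 3.44 to 6.75). The lowest of that kind was chr4:11406075-11407256, with 7 reads in DKO and 150 in HCT116 (-4.19, -5.71 to -3.29).

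Chromosomes differed in their medians. Chromosome 19 had the highest median log2 ratio, 0.72, with 32.9% of its regions at least 2-fold higher and 1.77% lower in DKO, followed by chromosomes 21 (0.67) and 22 (0.66). Chromosome 4 had the lowest, -0.10, with 22.8% at least 2-fold lower in DKO. Among regions called in both lines the medians of chromosomes 19, 21 and 22 were 0.25, 0.10 and 0.20. With each chromosome's median taken away, 49.3% of the regions past 2-fold were higher in DKO, against 67.0% without that step. The step brings every chromosome to the same median and so also takes away the median of all regions, 0.27. The lower share is thus in large part built into it and does not measure how chromosomes differ. Whole-chromosome gains and losses between the lines and differences in polymerase cannot be told apart from these libraries.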

How the data were processed

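Chromatin immunoprecipitation libraries of DKO and HCT116 cells were analysed, 1 per line for each of 7 targets. The 2 input libraries of the series were not used here. Reads of the total polymerase libraries were aligned with BWA to hg19, per the submitters' processing notes; the sources used here do not state versions, nor the peak caller and threshold for this target. The deposited table gives each region's read signal in each line as a density normalized by the authors, a log2 ratio (M) and mean log2 density (A), a p-value and the line in which the region was called, per the file headers. The p-value deposited by the authors was not used. M equalled the log2 ratio of the densities within 1.6e-05.

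The reads were recovered from M and A: M plus a line of slope 0.32 in A gave whole numbers within 0.05 for 100% of values over a window of 2 kb, and 1, the smallest value, was subtracted as an added count. The placement of the window within a region is not stated. PCR reads are not independent molecules, so intervals cover counting error only. Constant centring subtracts the median log2 ratio of the recovered reads over regions called in both lines. Tables were normalized separately, so levels were compared within a table, and a partner's ratio is that of the overlapping region. Where several regions of a table overlapped one region, the one with the longest overlap was taken.

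Named regions lie outside chromosomes 8 and Y, as do the named runs. They are the 10 highest and 10 lowest by log2 ratio among regions at or above the median of the higher line's density. That median was reached by 81125 regions of the whole table. Also named are the 5 highest and 5 lowest called in both lines and the 5 densest. The last list holds the 3 highest and 3 lowest without CTCF, cohesin or H3K27Ac. Regions lie at least 50 kb apart within a list, and the text gives some of each. The regions, classes and lists were chosen with earlier results of these data known. Python 3.11.15, numpy 2.4.6, pandas 2.3.3, scipy 1.17.1 and matplotlib 3.10.9 were used. The recovery of reads and the intervals of single regions and of medians were tested on simulated data, and the overlap step was not.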

Additional observations from a re-analysis of the deposited data

How the results depend on the processing

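With 1 library a line, the limit is that nothing separates the lines from their libraries, and reads limit single regions: 12 regions had 0 reads in DKO and 8 had 0 in HCT116. No paired analysis was possible because each line had 1 library and no result comes from a test. Requiring 20 reads in the deeper library left 162144 regions, and thinning to regions taken to share no counting window left 103363 (runs were not recomputed there). Under constant centring 19605 regions were higher and 30801 lower in DKO, the share higher was 38.9% (43.6% among regions called in both lines), against 67.0% and 51.5% as deposited, and runs numbered 691 higher and 846 lower. The same setting moved the median difference of the longest minus regions under 1 kb to 0.63, against -0.26 as deposited, that of the highest minus the lowest density class to 1.06, against 0.40, that with minus without H3K27Ac to 0.57, against 0.30, and that of CTCF with both cohesin subunits minus none of them to 0.61, against 0.24; the level-dependent line of the authors is by construction what it removes. With chromosome medians removed, 21956 regions and 768 runs were higher, and the shares were 49.3% and 21.8% (called in both lines). The removed medians were taken over all regions, whose median was 0.27, against 0.01 for regions called in both lines. The falls in both shares are thus in large part built into that setting. The differences by density, H3K27Ac and CTCF with cohesin were 0.31, 0.24 and 0.21. Thinning gave 20513 regions higher, since fewer regions were kept, with shares of 64.6% and 53.8% (called in both lines) and a CTCF with cohesin difference of 0.22. An overlap of at least 50% of the region gave 0.15 for H3K27Ac and 0.18 for CTCF with cohesin. At 4-fold, 6956 regions were higher and 2840 lower, the shares were 71.0% and 36.5% (called in both lines), and there were 206 runs, 97 higher and 109 lower. At 1.5-fold, 58627 were higher and 30363 lower, the share was 65.9%, and there were 3820 runs, 2939 higher and 881 lower. Of the 41 entries in the lists of named regions, of which some name a region already in another list, 36 moved by less than their counting interval under constant centring and 34 with chromosome medians removed; chr17:74721039-74734611 turned to 0.29. The cause of the other shifts was not tested.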
